A study of Homo sapiens with 4 samples.

Results

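The newly open sites after CECR2 deletion are 268 of 185009 ATAC-seq peaks on chromosomes 1 to 22, out of 190348 peaks in all. They were chosen by count alone. A site had 8 or fewer raw counts summed over both control libraries and 80 or more summed over both CECR2-deleted libraries, and peaks that start in the first 250000 bases of chromosome 1 were left out. The counts of all 4 libraries therefore chose the sites, so the level and the fold change of a site are given as a description without a test. The data also qualify the name: 262 of the 268 sites had at least 1 control count and 6 had none.

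The libraries came from LM2, a lung-metastatic derivative of the human breast cancer cell line MDA-MB-231. The sg1 group was the genotype CECR2 deletion 1, made with the guide sg1, and the control group carried a nontargeting guide. Each group had 2 replicates, both groups were grown in medium with puromycin, and each library was made from 50000 cells. No label says that the replicates were separate cultures, or whether the sg1 cells were 1 clone or a pool. A p-value here covers only how far such libraries differ, which may be technical, and 1 guide stands for the deletion.

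In ATAC-seq the transposase Tn5 cuts DNA that nucleosomes leave exposed, so counts gather at active promoters, enhancers and insulators. Enhancers lie far from gene starts or inside introns, and they are open in fewer cell types than promoters are. CECR2 is a bromodomain protein that pairs with the ISWI ATPases SMARCA1 and SMARCA5, which slide and space nucleosomes, and bromodomains bind acetylated lysines such as those of histone tails.

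Sequence is shown for the 2 sites that overlap a promoter window in the RefSeq table used here and for the 1 site that spans an annotated microRNA, since these touch a known transcript start or product. A promoter window runs from 250 bases before to 50 bases after a gene's start. The sequences are RefSeq's for GRCh38.p14, 5′ to 3′. In the promoters, capitals mark bases inside the site; in the MIR887 hairpin they mark the mature 5p arm, and in the mature microRNA the seed, bases 2 to 8. The site at MIR887 was chosen after its values were seen.
LRRC17 promoter, chr7:102912750-102913049 (+): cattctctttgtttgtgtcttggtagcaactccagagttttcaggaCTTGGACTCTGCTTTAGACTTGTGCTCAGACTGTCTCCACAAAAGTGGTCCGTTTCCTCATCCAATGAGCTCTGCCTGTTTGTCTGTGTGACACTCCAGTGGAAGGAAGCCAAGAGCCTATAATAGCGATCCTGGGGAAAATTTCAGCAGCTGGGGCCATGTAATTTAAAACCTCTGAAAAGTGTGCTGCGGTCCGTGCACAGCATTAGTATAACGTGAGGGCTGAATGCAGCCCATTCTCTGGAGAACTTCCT
LOC101928929 promoter, chr4:185902701-185903000 (+): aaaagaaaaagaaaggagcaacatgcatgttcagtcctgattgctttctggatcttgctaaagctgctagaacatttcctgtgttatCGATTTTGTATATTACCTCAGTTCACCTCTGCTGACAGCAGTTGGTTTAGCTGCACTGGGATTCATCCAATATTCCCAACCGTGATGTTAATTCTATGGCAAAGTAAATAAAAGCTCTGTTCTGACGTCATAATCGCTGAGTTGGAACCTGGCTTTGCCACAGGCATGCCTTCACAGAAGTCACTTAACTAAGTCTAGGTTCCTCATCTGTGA
MIR887 hairpin, chr5:15935182-15935260 (+): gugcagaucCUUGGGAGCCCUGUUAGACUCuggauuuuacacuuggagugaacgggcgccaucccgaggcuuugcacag
hsa-miR-887-5p, chr5:15935191-15935211 (+): cUUGGGAGcccuguuagacuc
LRRC17 encodes a secreted leucine-rich repeat protein, LOC101928929 is an uncharacterised gene inside SORBS2, and MIR887 lies inside FBXL7, an F-box gene. The site covered 254 of the 300 bases of the LRRC17 window, 213 of 300 of the LOC101928929 window and all 79 bases of the MIR887 hairpin. Both windows were searched on both strands for 8 motifs. The cAMP response element TGACGTCA occurred 1 time in the LOC101928929 window, inside the site, and in 1.85% of all 35116 windows. Each window held 1 CCAAT box, written CCAAT (34.6% of all windows). The E-box CANNTG occurred 1 time in the LRRC17 window and 2 times in the LOC101928929 window (68.7%). No match was found in either for the AP-1 motif TGANTCA (7.71%), the TEAD motif GGAATG (14.0%), the ETS motif CCGGAAG (10.3%), the GC box GGGCGG (45.0%) or the TATA box TATAAA (11.5%), and no hits of different motifs overlapped. The LRRC17 site had 75 and 49 counts in the sg1 libraries, against 7 and 1 in the control libraries. The LOC101928929 site had 56 and 68 counts in the sg1 libraries, against 2 and 6 in the controls. The MIR887 site had 43 and 39 counts in the sg1 libraries and 3 and 4 in the controls. Its sg1 sum was thus close to the lowest that the rule admits.

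Depth differed between the groups. After 109 peaks at the start of chromosome 1 were left out, the sg1 libraries held 43519018 and 38924086 counts, against 21002477 and 15561701 in the controls, so the sg1 group was 2.25 times as deep. Those 109 peaks held 25.4% of the counts of each sg1 library and 17.9% to 18.0% of those of the controls. Over the whole table edgeR's quasi-likelihood test at a Benjamini-Hochberg FDR of 0.05 called 21269 of 184717 peaks higher in sg1 (11.5%) and 31041 lower (16.8%), with a median log2 fold change of 0.02. These counts fell to 11147 higher and 18888 lower without sg1 replicate 2, and to 11524 and 19013 without sg1 replicate 1. Gene-end peaks of 7 MDA-MB-231 markers such as VIM and CD44 were present and summed to 230 and 234 CPM (counts per 1000000 counts of a library) in sg1, against 235 and 245 CPM in the controls. Markers of other cell types also had open gene ends. Of 6 luminal breast markers 5 had a gene-end peak, summing to 74.7 and 73.6 CPM in sg1 and 70.4 and 65.0 CPM in the controls; ERBB3 held 51.9 and 52.2 CPM of this in sg1 and 50.7 and 49.0 CPM in the controls, CDH1 was below 1 CPM in every library and ESR1 had no peak. The 4 blood markers had gene-end peaks that summed to 38.4 and 38.2 CPM in sg1 and 45.1 and 40.7 CPM in the controls, most of it at CD3E, with 27.0 and 26.8 CPM in sg1 and 34.0 and 30.1 CPM in the controls. Of 3 endothelial and fibroblast markers PDGFRA had a peak, with 4.68 and 5.12 CPM in sg1 and 5.83 and 6.07 CPM in the controls, and PECAM1 and CDH5 had none. The part of these markers in the results was not tested. The larger of 2 peaks at an end of CECR2 had 148 and 165 counts in sg1 and 74 and 52 in the controls (3.76 and 3.49 CPM, adjusted p = 0.77 by edgeR); open chromatin at a gene end does not test whether the gene was cut.

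The thresholds are in raw counts, and the difference in depth enters them. A sum of 80 corresponds to 0.956 CPM in sg1 and a sum of 8 to 0.223 CPM in the controls, a ratio of 4.29. At the depth of the controls, 80 sg1 counts would be 34.3. When sg1 counts were scaled down to the control depth and both thresholds kept, 9 sites remained. Of 7676 peaks with 8 or fewer control counts, 3.49% were newly open sites; every one of these peaks had at least 21 sg1 counts, with a median of 38. Of 120521 peaks with 80 or more sg1 counts, 0.222% were newly open sites.

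The sites were weak. Sg1 sums were 80 at the lowest, 97 at the median and 300 at the highest, against a median of 138 over all peaks on chromosomes 1 to 22, and 40.3% of those peaks had a lower sg1 sum than the median site. In sg1 replicate 1 the sites had 28, 54 and 169 counts (lowest, median and highest) and in replicate 2 they had 19, 47 and 134. Control replicate 1 had 0, 3 and 8 counts and control replicate 2 had 0, 2 and 7. Median levels were 1.22 and 1.19 CPM in the sg1 libraries and 0.146 and 0.130 CPM in the controls, while the median peak had 1.65 CPM in each sg1 library and 1.70 CPM in each control. The newly open sites thus reached a level in sg1 below that of the median peak. Summed over the sites, sg1 had 346 ± 4.57 CPM and the controls had 42.1 ± 3.17 CPM (SD, n = 2 each). These sums lay close together within each group, but the sg1 libraries differed by up to 2.86-fold in CPM at single sites. In all 268 sites both sg1 libraries exceeded both controls in CPM, as in 31.8% of all tested peaks. edgeR called all 268 higher in sg1, beside 11.5% of tested peaks. The choice of sites sets both counts, and nothing is read from them.

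**Figure D1:**
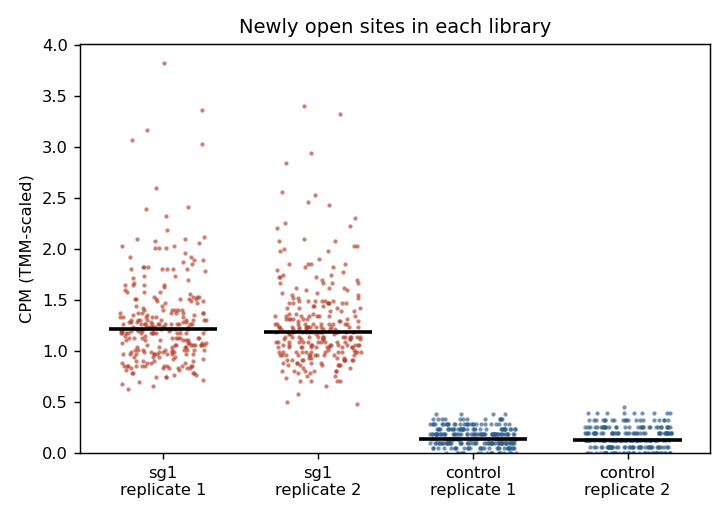
CPM for the 268 newly open sites in each library, sg1 left of control, with a bar at each median. Medians were 1.22 and 1.19 CPM in the sg1 libraries and 0.146 and 0.130 CPM in the controls.

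The strongest site lay inside TRERF1, a zinc-finger transcriptional regulator, at chr6:42251793-42252478, with 169 and 131 counts in sg1 and 2 and 5 in the controls. Scaled to depth, this was an 18.4-fold ratio (95% counting interval 8.81 to 46.1). Such intervals cover counting error only, and cut ends of 1 fragment are not independent. They also take no account that these same counts chose the sites, so their coverage may differ from 95%, and they serve as description. A site inside PLEKHM3, an adaptor with pleckstrin homology domains, at chr2:207847667-207848242, had 149 and 134 counts in sg1 and 5 and 0 in the controls, a 24.3-fold ratio (10.3 to 75.4). Both sites lay inside their gene, 26.9 and 26.4 kb from its nearest end. The site inside CCDC149, a coiled-coil gene, at chr4:24853220-24853572, had 134 and 97 counts in sg1 and 4 and 3 in the controls. The site inside CLIC5, a chloride intracellular channel protein, had 140 and 83 counts in sg1 and 5 and 2 in the controls. These sites also lay away from gene ends, at 49.7 and 67.2 kb.

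Among sites with no control count the highest sg1 sum lay 957 kb from SOX9, a transcription factor of cartilage and testis, at chr17:71163524-71163889 inside the noncoding gene CASC17. It had 82 and 116 counts in sg1 and 0 and 0 in the controls, at least 28.3-fold higher in sg1 when the control is set to a floor of 3 counts over the group. The other 5 sites with no control count were nearest to FAM110B (at least 18.2-fold higher in sg1), FRMD4A (at least 16.7-fold), LAMB1 (at least 12.7-fold), SORBS2 (at least 12.01-fold) and WDFY3 (at least 11.6-fold). A further 33 sites had 1 to 3 control counts and 229 had 4 to 8. Single libraries had more sites at 0, with 20 in control replicate 1 and 44 in the shallower control replicate 2.

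The remaining sites of the 12 with the highest sg1 sums had control sums of 4 to 6. TOX, an HMG-box factor of T-cell development, held a site with 89 and 101 counts in sg1 and 2 and 2 in the controls. TRAPPC9, a subunit of a vesicle-tethering complex, held a site with 97 and 91 counts in sg1 and 4 and 1 in the controls. ANXA13, an annexin, held a site with 90 and 96 counts in sg1 and 4 and 2 in the controls. In these 3 genes each sg1 library had more than 10 times the counts of either control. RIC3, a chaperone of acetylcholine receptors, held a site nearest to an end of TUB, with 93 and 89 counts in sg1 and 3 and 2 in the controls. A site 29.5 kb outside ARHGAP26, a GTPase-activating protein, had 103 and 79 counts in sg1 and 2 and 4 in the controls.

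The last 2 of the 12 lay beside pseudogene copies of GTF2I, a general transcription factor gene on chromosome 7, and reads of such copies may be split among them, so their levels are uncertain. The site at chr7:75184582-75184929, 454 bp outside GTF2IP1, had 136 and 112 counts in sg1 and 6 and 0 in the controls. The site at chr7:73207740-73208042, 444 bp outside GTF2IP4, had 115 and 88 counts in sg1 and 3 and 2 in the controls. The peak 508 bp outside GTF2I itself, chosen after its values were seen, had 106 and 78 counts in sg1 and 2 and 10 in the controls and missed the control threshold. All 3 copies thus carried a peak just beyond 1 end of the gene with at least 78 counts in each sg1 library and no more than 10 in each control.

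Most sites lay near the thresholds. Sg1 sums were 100 or more at 123 sites, 150 or more at 25 and 200 or more at 6, and 93 sites had sums of 80 to 89. The control sum was 7 or 8 at 111 sites. Just outside, 192 peaks had 70 to 79 sg1 counts with 8 or fewer control counts, and 220 had 9 or 10 control counts with 80 or more in sg1. The site near JCAD, with 52 and 28 counts in sg1 and 2 and 3 in the controls, was just inside the sg1 threshold. The peak near CHORDC1, with 43 and 36 counts in sg1 and 1 and 3 in the controls, was just outside it. At the control threshold the site near HMGA2, with 89 and 78 counts in sg1 and 2 and 6 in the controls, was just inside, and the peak near EEA1, with 86 and 101 counts in sg1 and 3 and 6 in the controls, was just outside. The peaks on either side of a threshold differed by 1 count. The log2 fold changes of the sites in the fit over all peaks ran from 2.07 to 9.16 with a median of 2.90; the upper end belongs to sites with no control count, where it depends on the prior count. The ratio of scaled counts had a median of 7.52 among the 262 sites with a control count and ran from 4.29 to 24.3 among sites with 4 or more control counts.

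**Figure D2:**
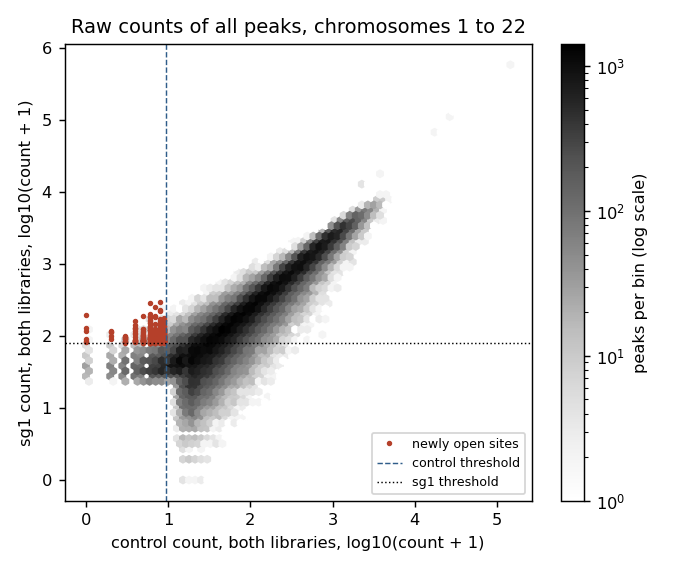
Raw counts per peak on chromosomes 1 to 22, summed over both sg1 libraries (vertical axis) and both control libraries (horizontal axis), with the thresholds of 80 and 8. The 268 sites occupy the upper left region, with most of them close to its edges.

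A choice made in 1 replicate can be read in the other, which the choice did not use. This division was added after seeing the data, and replicate numbers tie the sg1 and control libraries by label only. With halved thresholds in replicate 1 alone, 567 peaks had 4 or fewer control counts and 40 or more sg1 counts. Their summed sg1 level was 8.57 times the control level in replicate 1 and 2.58 times in replicate 2, where their median counts were 38 in sg1 and 5 in control. In replicate 2, 524 of them were higher in sg1 and 43 were not, so 92.4% were higher, against 50.9% of all peaks. Chosen in replicate 2 alone, 961 peaks had a summed ratio of 7.31 there and of 2.27 in replicate 1, and 885 of them (92.1%) were higher in sg1 in replicate 1, against 51.1% of all peaks. In the other replicate most such peaks were thus higher in sg1, at a smaller size, but this is not independent evidence. Only 160 of the 567 peaks and 175 of the 961 were newly open sites, so these shares and ratios do not describe the 268 sites. Every peak with 8 or fewer control counts over both libraries had at least 21 sg1 counts. Peaks low in control were therefore listed only where sg1 had counts. The share over all peaks is an unlike baseline for them, and nothing is read from the difference. The sg1 libraries of the 268 sites differed in CPM by less than 2-fold at 261 sites, with replicate 1 higher at 145. The mean chi-square of how sg1 counts split between the libraries was 2.43 per site and 1.96 at other peaks with sg1 sums of 80 to 300, so the sg1 libraries differed somewhat more at the sites.

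The median length of a site was 305 bp (quartiles 260 and 361 bp, range 151 to 686 bp), against 445 bp for the other 120253 peaks with 80 or more sg1 counts and 298 bp for all peaks. None was longer than 700 bp, against 24.5% of the other peaks with 80 or more sg1 counts and 16.0% of all peaks. The nearly lost sites, 556 peaks that meet the same 2 CPM thresholds turned round, had a median of 269 bp. Counts and length move together: the 17917 other peaks with sg1 sums of 85 to 120, the quartiles of the sites, had a median of 268 bp, and 0.134% of them passed 700 bp. The sites' median of 305 bp covers sg1 sums of 80 to 300, a wider range than this band, so lengths at like counts were not compared.

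The newly open sites lay farther from gene ends than most peaks, although many were inside genes. The median distance to the nearest end of a protein-coding gene was 61.7 kb, against 19.8 kb for other peaks with 80 or more sg1 counts, 45.7 kb for nearly lost sites and 25.4 kb for all peaks. More than 100 kb separated 104 sites (38.8%) from a gene end, against 18.4% of the other peaks with 80 or more sg1 counts. The peaks with sg1 sums of 85 to 120 stood between, at 29.4 kb and with 23.5% beyond 100 kb. More than 500 kb separated 20 sites (7.46%), against 2.42%. Within 10 kb of a gene end lay 42 sites (15.7%), against 38.1%, and within 1 kb 8 sites (2.99%), against 17.0%. Nearly lost sites had a like share within 1 kb, 2.52%, and of the peaks with sg1 sums of 85 to 120 the share was 8.85%; few gene ends were thus found at sites of large change in either direction. With genes of every type 24 sites (8.96%) lay within 1 kb of an end, against 24.5%. Inside the span of a protein-coding gene lay 121 sites (45.1%), against 56.4%, and the gene around such a site was long, with a median span of 240 kb against 104 kb. The gene table gives spans only, so exons and introns were not told apart.

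**Figure D3:**
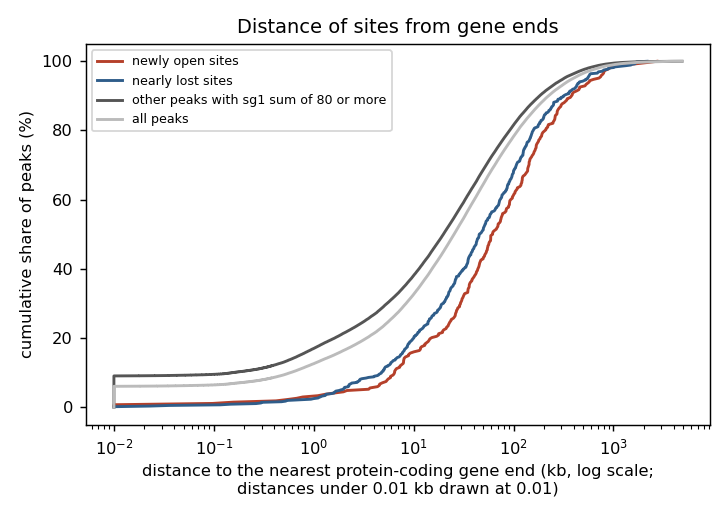
Distance from each peak to the nearest end of a protein-coding gene, shown as cumulative percent of peaks on a log distance axis in kb, for newly open sites, nearly lost sites, other peaks with 80 or more sg1 counts and all peaks. The curves of both changed sets run to the right, with medians of 61.7 kb for newly open sites and 45.7 kb for nearly lost sites, against 25.4 kb for all peaks.

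At gene ends, 8 sites were found, and the LRRC17 site described above was 1 of them. Either end of a gene counts here, so such a site need not lie at the gene's start. The site at SORCS1, a sorting receptor of the sortilin family, had 77 and 52 counts in sg1 and 4 and 1 in the controls. The site that lies in both FNDC8 and the ribosome biogenesis gene NLE1 had 61 and 49 counts in sg1 and 2 and 5 in the controls. The site at C10orf90 had 57 and 50 counts in sg1 and 7 and 1 in the controls. These 3 sites, like LRRC17, passed 100 counts in sg1. The site at TMEM132E, a gene linked to hearing, had 55 and 36 counts in sg1 and 3 and 2 in the controls. The site at PEX11A, a peroxisome division factor, had 54 and 36 counts in sg1 and 1 and 4 in the controls. The site at SPMIP9, a sperm microtubule protein, had 38 and 45 counts in sg1 and 4 and 3 in the controls. These 3 had no other peak within 1 kb.

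The site at SCD, the desaturase that makes monounsaturated fatty acids, had 39 and 47 counts in sg1 and 4 and 3 in the controls. It lay 29 bp from a larger peak with 309 and 294 counts in sg1 and 41 and 54 in the controls, with a log2 fold change of 1.43 (SE 0.21, adjusted p = 2.49e-06 by edgeR). Whether this site is the edge of a wider change in that peak was not tested, and peaks this close can share fragments. The tallest peak at an end of SCD was a different one, with 1335 and 1130 counts in sg1 and 461 and 325 in the controls. Its log2 fold change was 0.43 (SE 0.08, adjusted p = 0.00018 by edgeR). That of PEX11A was also not the site, with 586 and 487 counts in sg1 and 202 and 191 in the controls (0.22, adjusted p = 0.20 by edgeR). At 6 nearest genes the tallest gene-end peak was itself a site.

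Peaks next to the sites moved the same way, and this faded with distance. Within 2 kb of a site lay 137 tested peaks that were neither newly open nor nearly lost, with a median log2 fold change of 1.11; edgeR called 81 of them higher (59.1%) and 4 lower (2.92%), beside 11.5% and 16.8% over the whole table. Within 0.1 kb, 27 of 33 were higher and 0 were lower, with a median of 2.0, but such peaks can share fragments with the site, since both cut ends of a fragment are counted. Between 0.1 and 2 kb, 54 of 104 were higher and 4 lower, with a median of 0.83. Between 2 and 10 kb the median was 0.19, with 21.1% of 418 peaks higher and 11.2% lower. From 10 to 50 kb it was 0.09 with 15.3% of 1702 peaks higher, and from 50 to 100 kb it was 0.10 with 14.4% of 2021 higher. Peaks within 2 kb of nearly lost sites had a median of -1.23, with 10 of 246 higher and 158 lower. These peaks come from the libraries that chose the sites, so the counts are read beside the background only. Of the 137 peaks, 50 were called higher without sg1 replicate 1, 48 without sg1 replicate 2 and 33 by DESeq2.

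**Figure D4:**
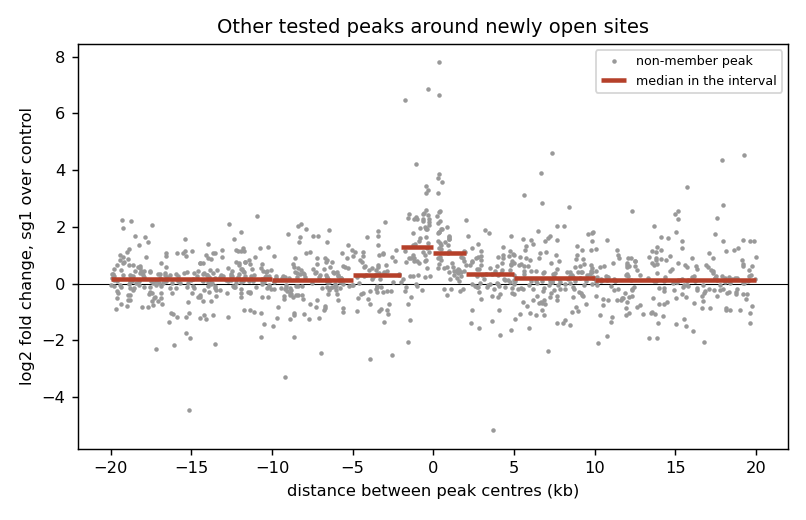
Log2 fold change, sg1 against control, of other tested peaks by distance in kb from newly open sites, with the median in each interval of distance. By the gap between peak edges, the medians around newly open sites were 2.0 within 0.1 kb, 0.83 from 0.1 to 2 kb, 0.19 from 2 to 10 kb and 0.09 to 0.10 beyond.

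Of the nearest peaks that were not sites themselves, 252 were tested, with a median log2 fold change of 0.54. edgeR called 99 of them higher (39.3%) and 18 lower (7.14%), beside 11.5% and 16.8% over the whole table. The examples here are all higher ones. Beside the SLIT3 site, the nearest peak, 834 bp away, had 248 and 210 counts in sg1 and 39 and 19 in the controls (1.77 on the log2 scale, SE 0.24, adjusted p = 5.61e-07 by edgeR). Beside the LGR5 site, the peak 570 bp away had 214 and 160 counts in sg1 and 36 and 14 in the controls (1.69, SE 0.27, adjusted p = 8.57e-06 by edgeR). Beside the first TMEM132B site, the peak 21 bp away had 142 and 76 counts in sg1 and 6 and 4 in the controls (3.19, SE 0.43, adjusted p = 5.26e-07 by edgeR), and it missed the control threshold of 8. All 3 of these neighbours had at least 76 counts in each sg1 library, and they were chosen after their values were seen.

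Most sites stood alone, but they lay near another site more often than the compared peaks did. With gaps of at most 100 kb, 18 sites (6.72%) formed 9 pairs and no larger group, while 2.39% of the other peaks with 80 or more sg1 counts and 2.70% of nearly lost sites lay within 100 kb of a site. At 50 kb there were 4 pairs, and at 1 Mb 74 sites fell in 35 groups of at most 4. The median gap between neighbouring sites was 3986 kb. Of 118 protein-coding genes that held a site, 7 held 2 and none held more. The 268 sites had 252 different nearest genes; TOX was nearest to 3 sites and 14 genes were nearest to 2. No other peak of any kind lay within 10 kb of 59 sites (22.01%), against 11.3% of the other peaks with 80 or more sg1 counts and 21.0% of nearly lost sites.

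Some pairs were adjacent peaks. Inside EXOC4, an exocyst subunit, 2 sites stood 17 bp apart: the first had 56 and 58 counts in sg1 and 1 and 3 in the controls. The second had 58 and 56 counts in sg1 and 1 and 0 in the controls, a 48.9-fold ratio whose counting interval runs from 8.60 to 1949. Near RBMS1, an RNA-binding protein, 2 sites stood 64 bp apart, with 45 and 38 counts in sg1 and 2 and 1 in the controls at the first, and with 54 and 41 in sg1 and 0 and 2 in the controls at the second. Such adjacent peaks can share fragments, which was not measured here.

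Other pairs were farther apart. In TOX, the second site had 46 and 37 counts in sg1 and 6 and 2 in the controls. In SORBS2, an actin-linked adaptor, a site with 43 and 41 counts in sg1 and 0 and 0 in the controls stood with the LOC101928929 promoter site. Near TMEM132B the sites had 71 and 41 and then 35 and 48 counts in sg1, against 4 and 3 and then 3 and 2 in the controls. By sg1 counts, the pairs at TOX and SORBS2 each join a higher and a lower site. At SORBS2 the site with fewer sg1 counts had the larger ratio to control, at least 12.01-fold against 6.65-fold. In C10orf90 the site away from the gene end had 52 and 32 counts in sg1 and 2 and 5 in the controls. At PTPRF, a receptor tyrosine phosphatase, the sites had 37 and 46 and then 54 and 43 counts in sg1, against 4 and 1 at each in the controls. In TACC2, a centrosome-associated protein, they had 46 and 44 and then 48 and 35 counts in sg1, against 7 and 1 and then 2 and 2 in the controls. The ninth pair was at AXIN2.

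Sites were found on 20 of 22 chromosomes, with none on chromosomes 18 and 21, which had 3556 and 2037 peaks. Per 1000 peaks with 80 or more sg1 counts, there were 2.22 sites over all chromosomes. The highest rates were 3.79 on chromosome 4 (25 sites), 3.45 on chromosome 12 (21 sites), 3.34 on chromosome 10 (21 sites) and 3.32 on chromosome 7 (22 sites). Chromosome 19 had 0.739 (3 sites) and chromosome 11 had 0.795 (5 sites). The median log2 fold change of all tested peaks was 0.21 on chromosome 7, 0.16 on chromosome 12, 0.06 on chromosome 4 and 0.03 on chromosome 10, where the rates were high. It was 0.17 on chromosome 19 and -0.05 on chromosome 11, where they were low, so a high median did not always go with a high rate.

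**Figure D5:**
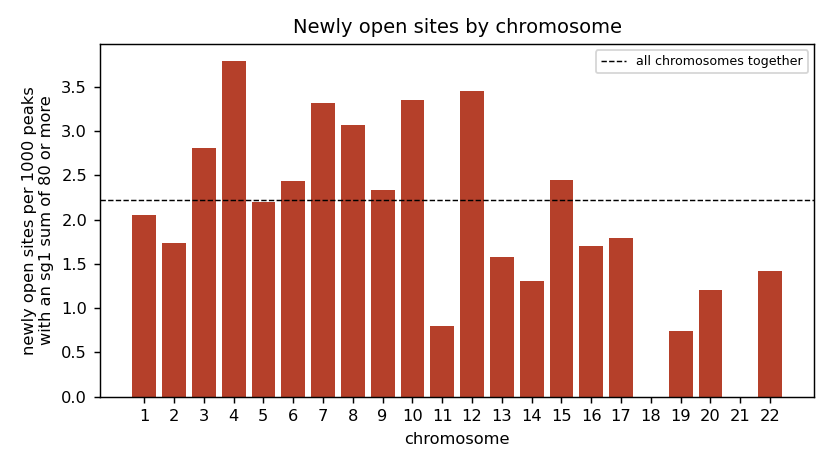
Newly open sites per 1000 peaks with 80 or more sg1 counts on each chromosome, with a line at the rate of 2.22 over all chromosomes. Chromosomes 4, 12, 10 and 7 stand highest, from 3.79 to 3.32, and chromosomes 18 and 21 have none.

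The nearest genes were placed in 14 gene lists. A nearest gene is a matter of position, and no source used here measures whether a site acts on it. In 9 lists (AP-1, ISWI and bromodomain, NF-kB, TGF-beta, cancer-testis, epithelial, hypoxia, imprinted and luminal breast genes) no site had its nearest gene, but these lists held the nearest gene of only 0.0274% to 0.575% of the other peaks with 80 or more sg1 counts, so few or no sites would fall to them at that rate. WNT pathway genes were nearest to 4 sites (1.49% of sites, against 0.332% of the other peaks with 80 or more sg1 counts). The site in SFRP1, a secreted WNT antagonist, had 56 and 39 counts in sg1 and 5 and 2 in the controls. The site near LGR5, a receptor for R-spondins, had 52 and 37 counts in sg1 and 4 and 1 in the controls. AXIN2, a scaffold of the beta-catenin destruction complex, had a site with 44 and 39 counts in sg1 and 1 and 3 in the controls and another with 38 and 42 in sg1 and 2 and 2 in the controls. All 4 had sg1 sums under 100, near the threshold.

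Developmental transcription factors were nearest to 6 sites (2.24%, against 1.02%). SOX9 had a second site, 299 kb away, with 68 and 47 counts in sg1 and 0 and 3 in the controls. SOX2, FOXA2 and RUNX3 had 1 site each. Neural adhesion and synapse genes were nearest to 5 sites (1.87%, against 0.659%). The site in SLIT3, a guidance ligand for ROBO receptors, had 46 and 80 counts in sg1 and 1 and 6 in the controls. The site in SYT1, the calcium sensor of synaptic vesicles, had 55 and 39 counts in sg1 and 6 and 1 in the controls. ROBO1 had 1 site. Whether the length or isolation of these genes enters these shares was not measured, and no list was tested. Of YAP and TEAD targets, NT5E, the ectonucleotidase CD73, had 1 site (0.373% of sites, against 0.325%) with 37 and 50 counts in sg1 and 2 and 5 in the controls. Of mesenchymal genes, THBS2, a thrombospondin of the matrix, had 1 site (0.373%, against 0.556%) with 89 and 43 counts in sg1 and 4 and 1 in the controls.

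At the ends of the nearest genes themselves, the shares were close to those of genes in general. The tallest gene-end peak, leaving out newly open sites, was tested for 183 nearest genes, and edgeR called 62 higher in sg1 (33.9%) and 19 lower (10.4%), with a median log2 fold change of 0.17. Over all genes 3852 of 12756 such peaks were higher (30.2%) and 1142 lower (8.95%), with a median of 0.15. Among 86 genes that hold a site, 34 were higher (39.5%) and 7 lower (8.14%), with a median of 0.24. Another 63 nearest genes had no tested peak at an end. Individual genes went either way. The tallest gene-end peak of TOX had 14.8 ± 0.0148 CPM in sg1 and 11.0 ± 0.216 CPM in the controls (SD, n = 2 each; log2 fold change 0.43, adjusted p = 0.0043 by edgeR). That of RUNX3 had 3.36 ± 0.132 CPM in sg1 and 6.58 ± 1.12 CPM in the controls (SD, n = 2 each; -0.95, adjusted p = 0.00023 by edgeR). That of EXOC4 had 15.4 ± 0.439 CPM in sg1 and 14.3 ± 1.98 CPM in the controls (SD, n = 2 each; 0.10, adjusted p = 0.55 by edgeR). A newly open site near a gene thus stood beside a higher, a lower and an uncalled gene end in these 3 genes, which were chosen after their values were seen.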

How the data were processed

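Counts were deposited by the authors as raw counts per peak in 4 ATAC-seq libraries (2 sg1, 2 control) over a merged peak list. Per the file headers, featureCounts 1.6.0 counted single ends of cut-site alignments, and a fragment may thus be counted at both its ends. The submitters' processing notes name Bowtie2 and MACS2 2.2.4 among other tools. The genome build and the peak settings were not given in the sources used here. RefSeq's GRCh38.p14 gene table placed the sites: of its 20052 protein-coding genes, 73.3% have an end less than 1 kb from a peak, against 31.1% and 30.8% after shifts of 100 kb either way.

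edgeR 4.0.16 (R 4.3.3) tested 184717 peaks (filterByExpr; TMM) by its quasi-likelihood test on group, at an FDR of 0.05; peaks at the start of chromosome 1 were left out. It was tested on simulated data. Ratios are of counts scaled to TMM library sizes, with exact 95% counting intervals. DESeq2 1.42.0 and the alternatives in the closing section were also run. Figures used matplotlib 3.10.9, and tables pandas 2.3.3 in Python 3.11.15.

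The members and gene lists were chosen with earlier results of these data known. Named sites are the 12 with the highest sg1 sums, those within 1 kb of a gene end, the 8 leading groups, up to 3 per list and up to 5 on each side of each threshold; others are named as chosen later, and some that the rule names are not reported here. Deviations of same-numbered libraries were not correlated over peaks (-0.00026) and the labels state no block, so the fit has none. Counting noise at these counts could hide a shared batch, so this value does not settle whether libraries were paired.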

Additional observations from a re-analysis of the deposited data

Results flagged for a closer look

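Chromosome X lay outside the choice of sites, yet 5 of its 5196 peaks met both count thresholds, in data that the comparisons did not use. This share, 0.0962%, was below the 0.145% of peaks on chromosomes 1 to 22 that are newly open sites. The peak nearest to MAP7D2 had 57 and 24 counts in sg1 and 3 and 4 in the controls. The peak nearest to GPC3, a glypican, had 86 and 73 counts in sg1 and 3 and 5 in the controls. The peak nearest to ACTRT1 had 49 and 63 counts in sg1 and 4 and 3 in the controls, and that nearest to LOC105373146 had 46 and 35 in sg1 and 6 and 2 in the controls. None of the 109 peaks at the start of chromosome 1 met both thresholds.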

How the results depend on the processing

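The number of sites depended on the thresholds: 268 became 9 with sg1 counts scaled down to the control depth, 68 with a control sum of at most 4, 772 with at most 12, 3295 with an sg1 sum of at least 40, 20 with at least 160 and 91 when each library had to pass its equal share of the threshold. Leaving out 1 library with its group's threshold halved gave 257 to 1014 sites, with 1014 without control replicate 1 and 413 without sg1 replicate 2; replicate 1 or 2 alone, chosen after seeing the data, gave 567 or 961. Within 50 kb and 1 Mb, 8 and 74 sites had another site nearby, in place of 18 at 100 kb. Gene-end sites were 8 at 1 kb, 19 at 5 kb, 42 at 10 kb and 24 with all gene types. DESeq2 called 8475 peaks higher and 17866 lower over the whole table and 250 of the 268 sites higher; without 1 library each, edgeR called 11147 to 20243 higher and 18888 to 29467 lower. The sites' median log2 fold change of 2.90 was 2.94 with library size only, 2.92 in DESeq2 and 2.89 to 3.05 without 1 library. That of peaks within 10 kb, 0.34, was 0.35 with RLE scaling, 0.39 with library size only, 0.37 without a filter, 0.38 in DESeq2, 0.35 with a replicate block, 0.34 with the chromosome 1 start kept, 0.31 to 0.39 without 1 library, and 0.14 and 0.12 out to 50 and 100 kb; all but DESeq2 and the distances were added after seeing the data. No sign changed. With the replicate block, 21218 peaks were higher, 30358 lower and all 268 sites higher, so no count of calls moved by over 1.5 times. The cause of these differences was not tested, and with 8 or fewer control counts per site the depth of the controls limits every ratio.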
